A study of Homo sapiens with 39 samples.

Results

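The transcripts of 10 genes of the bile duct lineage and of Notch signalling, KRT7, KRT19, EPCAM, SOX9, SPP1, NOTCH1, NOTCH2, NOTCH3, JAG1 and HES1, were followed through concentration series of 10 chemicals in HepaRG™ cells. The genes were chosen by symbol, as 10 of the 20802 gene targets of the AmpliSeq panel, and each is read by 1 amplicon. HepaRG™ is an established human liver progenitor line whose differentiated cultures hold hepatocyte-like and cholangiocyte-like cells. The cells received 3 daily treatments and were sampled some hours after the last one, and RNA of 3 cultures was pooled into 1 library for each condition, so that each condition has 1 library and the spread between cultures was not measured.

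The 39 libraries comprised 30 treated libraries and 9 vehicle controls. The 5 DNA damage-inducing (DDI) chemicals were 2-nitrofluorene (2NF) at 10, 50 and 250 µM, aflatoxin B1 (AFB1) at 0.25, 1 and 2.5 µM, cisplatin (CISP) at 2, 5 and 10 µM, etoposide (ETP) at 0.5, 2.5 and 10 µM, and methyl methanesulfonate (MMS) at 50, 100 and 200 µM. The 5 non-DDI chemicals were colchicine (COL) at 0.05, 0.1 and 0.3 µM, 2-deoxy-D-glucose (2DG) at 1.25, 5 and 10 mM, ampicillin trihydrate (AMP) at 1, 3 and 10 mM, sodium ascorbate (ASC) at 1, 2 and 10 mM, and sodium chloride (NaCl) at 1, 2.5 and 10 mM. Below, the concentrations are called low, mid and high. The controls of 2NF, CISP, ETP and the one shared by AFB1 and COL received DMSO, those of 2DG, AMP, ASC and NaCl received media, and that of MMS received water. Library totals ranged from 8504699 to 16425527 counts.

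Cholangiocytes, the epithelial cells of the bile ducts, carry the keratins KRT7 and KRT19, the adhesion protein EPCAM, the transcription factor SOX9 and the secreted phosphoprotein SPP1 (osteopontin), whereas hepatocytes lack most of these. Notch signalling directs liver progenitors towards this fate. A ligand such as JAG1 on one cell binds a NOTCH receptor on its neighbour, gamma-secretase frees the receptor's intracellular domain, and that domain joins the DNA-binding protein RBPJ to turn on genes such as HES1, a repressor that also acts on its own promoter.

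Because HES1 is the pathway target named above, the 250 bases before its start are shown. The same stretch of SPP1, which had the trends with the lowest adjusted p, is set beside it. Whether HES1 follows Notch activity in these cells was not tested. Both are from RefSeq on GRCh38.p14, plus strand, and capitals mark TGGGAA, the core of the RBPJ site, searched on both strands.
HES1, chr3:194135898-194136147: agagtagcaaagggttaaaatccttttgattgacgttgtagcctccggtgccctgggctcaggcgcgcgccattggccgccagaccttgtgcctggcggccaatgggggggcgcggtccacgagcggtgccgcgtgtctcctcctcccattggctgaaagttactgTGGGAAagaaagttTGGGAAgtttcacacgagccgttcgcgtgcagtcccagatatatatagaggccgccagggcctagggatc
SPP1, chr4:87975464-87975713: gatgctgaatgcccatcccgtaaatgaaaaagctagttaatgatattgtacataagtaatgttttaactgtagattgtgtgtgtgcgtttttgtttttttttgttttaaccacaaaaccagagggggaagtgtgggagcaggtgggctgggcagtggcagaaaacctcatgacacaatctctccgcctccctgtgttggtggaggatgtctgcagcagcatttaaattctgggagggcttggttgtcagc
The HES1 stretch holds TGGGAA 2 times, starting 84 and 70 bases before the start. The windows of SPP1, NOTCH1, NOTCH2, NOTCH3 and JAG1 do not hold these letters. Of 27305 promoters of this length, 21.1% hold TGGGAA at least once and 2.92% hold it 2 or more times. The N-box CACNAG, the sequence that HES1 itself binds, was found 3 times in the HES1 window and 1 time in that of NOTCH3, against 32.0% of all promoters with at least 1 match. A match is a description of the letters and not of a bound site. KRT7, KRT19, EPCAM and SOX9 had no entry in the promoter table.

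Of the 10 genes, 3 were nearly without reads. KRT7 had 0 counts in 28 of 39 libraries and at most 3 counts in any, EPCAM had 0 counts in 35 libraries and at most 2, and the receptor NOTCH3 had 0 counts in 13 libraries and at most 6. The limit that a count of 0 allows (3 counts, for counting error only) was 0.183 to 0.353 RPM by library (RPM is the count scaled to the library total). With 1 amplicon per gene, absent RNA and a target that amplifies poorly cannot be told apart. Among further bile duct markers, CFTR and SCTR also had a median of 0 counts, while 13 of the 19 with a target had a median of at least 10. Markers of the bile duct lineage were thus only partly detected, and of those among the 10 genes only KRT19, SOX9 and SPP1 could be followed. Whether these 3 genes measure the cholangiocyte-like part of the cultures was not tested. All 10 hepatocyte markers had a median of at least 10 counts, as did 5 of 8 markers of other cell types. The endothelial VWF and CDH5 and the leukocyte PTPRC were at 0 to 1 counts.

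The other 7 genes never fell under 10 counts in a library and are described below. KRT19 ranged from 199 to 1314 RPM over the 39 libraries, with a median of 974 RPM. SOX9 ranged from 8.09 to 63.2 RPM and SPP1 from 22.3 to 166 RPM. The receptors NOTCH1 and NOTCH2 ranged from 10.5 to 39.8 RPM and from 106 to 237 RPM. The ligand JAG1 ranged from 26.0 to 106 RPM, and HES1 had the lowest levels, 3.25 to 20.9 RPM or 32 to 264 counts. Levels are not compared between genes because each amplicon has its own efficiency.

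The untreated state differed between vehicles for some of these genes. SOX9 was 31.5, 39.1, 33.4 and 37.3 RPM in the DMSO controls of CISP, 2NF, AFB1 with COL, and ETP, and 16.4, 26.2, 22.6 and 21.2 RPM in the media controls of NaCl, 2DG, ASC and AMP. In the same order, SPP1 was 36.4, 38.0, 72.3 and 32.2 RPM with DMSO and 105, 75.6, 110 and 118 RPM with media. The DMSO controls were thus higher in SOX9 and lower in SPP1, without overlap. SOX9 was higher in DMSO by 0.73 ± 0.15 on the log2 scale (SE, n = 4 and 4, edgeR adjusted p = 0.0183), and SPP1 differed by -1.16 ± 0.25 (adjusted p = 0.0250). Over all targets tested, 1.66% were called higher and 3.68% lower in DMSO. Both calls were lost without the control of 2NF (adjusted p = 0.0506 for SOX9 and 0.0751 for SPP1) or of ETP (0.0612 and 0.0808), and the SPP1 call also without that of CISP (0.0924) or AMP (0.0582).

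KRT19 in the DMSO controls fell into a wide range, 397, 626 and 455 RPM for CISP, 2NF and ETP against 1233 RPM for AFB1 with COL, while the media controls held 942 to 1314 RPM. The difference between vehicles did not pass the test (-0.72 ± 0.31, adjusted p = 0.211). NOTCH1 was 10.5 to 14.7 RPM with DMSO and 15.5 to 26.4 RPM with media, without overlap, and did not pass the test either (-0.62 ± 0.18, adjusted p = 0.0765). In all, 3 of the 7 genes did not overlap between the vehicles, against 13.6% of the targets that never fell under 10 counts. Of 12 further bile duct markers 2 were lower, and of 10 hepatocyte markers 3 were higher, in DMSO. MMP7, a protease of bile duct cells, differed by -1.24 (adjusted p = 0.0122), whereas the hepatocyte enzyme CYP3A4 was higher in DMSO by 3.09 (adjusted p = 0.00144). In bulk RNA, fewer cells of a type and less RNA per cell cannot be told apart. Since controls were run with their chemicals, vehicle and experiment cannot be fully told apart either.

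The ratio of every treated library to the control of its own set was taken on the scale of log2(RPM + 1). Of 210 ratios of the 7 genes, 4 were at least 2-fold higher and 16 at least 2-fold lower (1.90% and 7.62%), against 1.5% and 1.48% over the 11562 targets that never fell under 10 counts, in the same 30 conditions. Of these 20 ratios, 8 belonged to MMS and 6 to 2NF, and 3 conditions of a chemical share 1 control. NOTCH1 and NOTCH2 had no ratio past 2-fold.

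**Figure D1:**
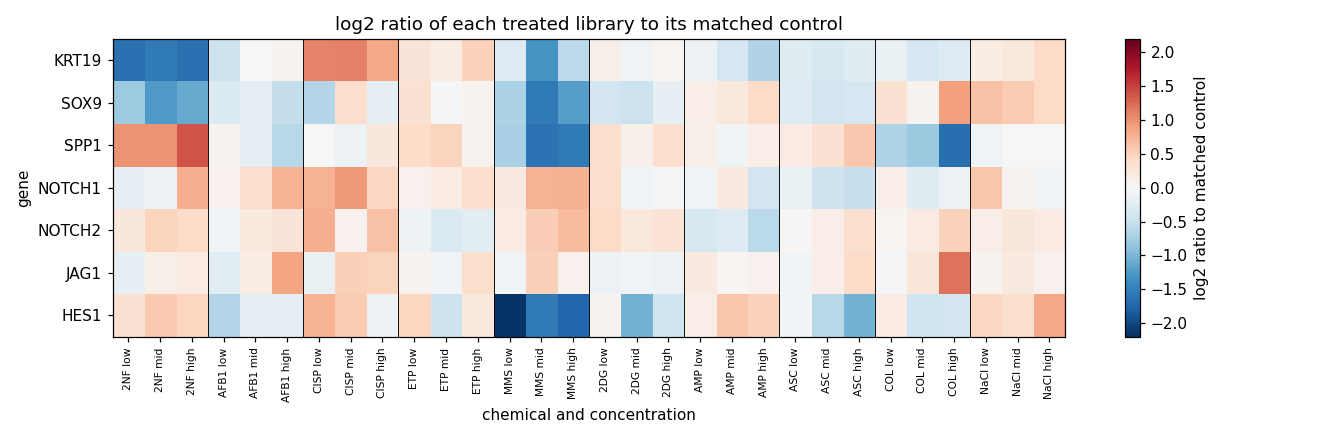
log2 ratio of each of the 30 treated libraries (columns, grouped by chemical) to its matched control for the 7 genes (rows), with red for higher and blue for lower. The deepest blue cell is HES1 in MMS low (-2.15), and JAG1 in COL high (1.19) and SPP1 in 2NF high (1.38) stand out in red.

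A concentration trend, the log2 change per step from control (0) to low, mid and high (1, 2 and 3), was tested for each chemical in 1 edgeR fit of all 39 libraries with 20 residual degrees of freedom. Of 70 pairs of gene and chemical, 9 passed an adjusted p of 0.05, in 4 chemicals: 2NF, AFB1, MMS and COL. Most calls over all targets fell in these 4 chemicals too. Of all targets, 4.30% rose and 4.45% fell with 2NF, 2.36% and 3.21% with AFB1, 5.10% and 10.4% with MMS, and 5.13% and 7.21% with COL. With each other chemical at most 0.0796% passed in either direction.

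**Figure D2:**
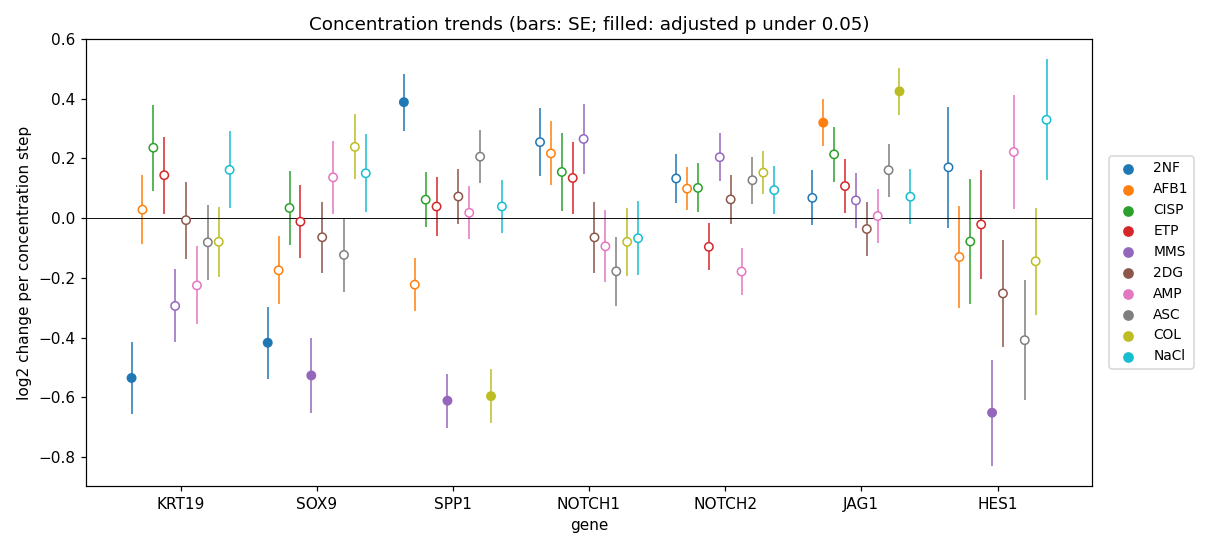
log2 change per concentration step with its SE for the 7 genes in 10 chemicals, with filled points for trends past an adjusted p of 0.05. SPP1 has a filled point above 0 for 2NF (0.39) and filled points below 0 for MMS (-0.61) and COL (-0.60).

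After 2NF, 2 bile duct markers fell and 1 rose. KRT19 was 626 RPM in the control and 200, 213 and 199 RPM at low, mid and high. All 3 treated libraries lay below each of the 9 controls, at nearly the same level. The log2 change per step was -0.53 ± 0.12 (adjusted p = 0.00365). SOX9 was 39.1 RPM in the control and 22.1, 16.0 and 17.6 RPM after treatment (-0.42 ± 0.12 per step, adjusted p = 0.0252). SPP1 went the other way, from 38.0 RPM to 76.0, 76.7 and 101 RPM (0.39 ± 0.10, adjusted p = 0.00827). Over all targets, 4.30% rose and 4.45% fell with 2NF.

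These 3 trends rested on the 2NF control, since most of the change was already present at the low concentration. Without that control, the change per step was -0.02 for KRT19 (adjusted p = 0.991), -0.19 for SOX9 (0.855) and 0.18 for SPP1 (0.717). The largest difference in KRT19 between 2 DMSO controls, 1.63 on the log2 scale, was about as large as the ratios after 2NF, -1.64, -1.55 and -1.65. For SOX9 the largest such difference was 0.30, and the ratios at mid and high were -1.24 and -1.10. For SPP1 it was 1.14, which the ratios at low and mid (0.98 and 0.99) did not pass and that at high (1.38) did. With the 3 concentrations taken alike, KRT19 was lower by -1.66 ± 0.23 (adjusted p = 0.00101), while SOX9 (0.137) and SPP1 (0.223) did not pass. This coding sets the treated libraries against the same 2NF control, so it is no check on that control. None of the 3 passed with the concentration as a fraction of the highest (adjusted p = 0.240 for KRT19, 0.400 for SOX9 and 0.223 for SPP1) or in the 4 libraries of 2NF alone (0.0726, 0.0559 and 0.0617). The SPP1 call was also lost without the high library (0.48 per step, adjusted p = 0.0873) and the SOX9 call without the mid library (-0.38, adjusted p = 0.0675).

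KRT18, a keratin of hepatocytes and cholangiocytes alike, fell with 2NF as well (-0.53 ± 0.08 per step, adjusted p = 0.000136). Hepatocyte markers fell in 4 of 10, among them the plasma protein genes TTR (-0.83 per step), TF (-0.80) and APOA1 (-0.62). The summed level of the 10 was 34934 RPM in the control and 28644, 13072 and 12867 RPM after treatment. The 9 controls held sums of 21871 to 45570 RPM. ALB makes up most of this sum, and its own trend did not pass (-0.53, adjusted p = 0.0931). Of 13 further bile duct markers, 1 fell, ONECUT1 (-0.42, adjusted p = 0.0439), and none rose. Of 5 markers of other cell types, 1 fell, the collagen COL3A1 (-0.75, adjusted p = 0.00117), while the collagen COL1A1 had 0.07 (adjusted p = 0.554). None of these list genes was examined with the 2NF control left out. The part of a change in cell types in the KRT19 and SOX9 values was not tested.

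After MMS, 3 of the 7 genes fell and none rose. SPP1 was 88.0 RPM in the water control and 53.3, 27.7 and 29.2 RPM at low, mid and high, below the control at every concentration (-0.61 ± 0.09 per step, adjusted p = 5.78e-05). SOX9 was 25.9 RPM and then 15.5, 8.09 and 10.6 RPM, the last 2 values being the lowest of all 39 libraries (-0.53 ± 0.13, adjusted p = 0.00502). HES1 was 20.9 RPM in the control and 3.93, 6.51 and 5.53 RPM after treatment (-0.65 ± 0.18, adjusted p = 0.0127). Over all targets, 5.10% rose and 10.4% fell with MMS.

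The HES1 trend depended on 1 library. The water control was the highest of all 39 libraries for HES1, and the 8 other controls held 3.25 to 12.1 RPM, a range that contains all 3 MMS libraries. Without the water control the direction turned, to 0.22 per step (adjusted p = 0.805). SOX9 and SPP1 kept their direction without it and lost the call (-0.31, adjusted p = 0.525, and -0.46, adjusted p = 0.108). With the concentrations taken alike, all 3 passed, at -1.28 ± 0.31 for SOX9 (adjusted p = 0.0407), -1.35 ± 0.31 for SPP1 (0.0314) and -2.07 ± 0.41 for HES1 (0.0150). This coding sets the treated libraries against the same water control, so it is no check on that control. In a fit of the 4 MMS libraries alone none of the 3 passed (adjusted p = 0.116, 0.0916 and 0.177). With a single water control, its own spread was not measured.

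KRT19 after MMS was 1150 RPM in the control and 943, 465 and 769 RPM (-0.29 ± 0.12 per step, adjusted p = 0.107), and without the high library the trend passed (-0.70, adjusted p = 0.0188). The receptors had positive slopes that did not pass. NOTCH1 was 22.6 RPM and then 26.1, 38.97 and 39.8 RPM (0.27 ± 0.12, adjusted p = 0.129), and NOTCH2 was 139 RPM and then 158, 202 and 224 RPM (0.20 ± 0.08, adjusted p = 0.0837). The NOTCH2 trend passed without the CISP control (adjusted p = 0.0333), CISP low (0.0148) or CISP mid (0.0481).

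Other genes of both lists also had trends that passed with MMS. None of the genes in this paragraph was examined with the water control left out. Of 13 further bile duct markers tested, 6 fell and none rose, with a median of -0.19 per step against -0.01 over all targets. They included MMP7 (-0.64 ± 0.10, adjusted p = 0.000129), ONECUT1, a transcription factor of liver progenitors (-0.47), BICC1, an RNA-binding protein (-0.24), and CLDN7, a tight junction protein (-0.48). Of 17 genes of Notch processing and modification, 3 rose: the gamma-secretase subunits APH1B (0.27 ± 0.06, adjusted p = 0.00465) and APH1A (0.15) and POFUT1, which adds fucose to Notch receptors (0.30). The coactivator MAML2 fell (-0.31, adjusted p = 0.0239). Hepatocyte markers fell in 6 of 10, with summed levels of 24801 RPM in the control and 19310, 3748 and 7239 RPM after treatment. Of 5 markers of other cell types, the collagens COL1A1 and COL3A1 and the adhesion gene PECAM1 fell. PECAM1 is listed for endothelium, but the endothelial VWF and CDH5 had at most 1 count in any library. The part of a change in cell types in the result was not tested.

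**Figure D3:**
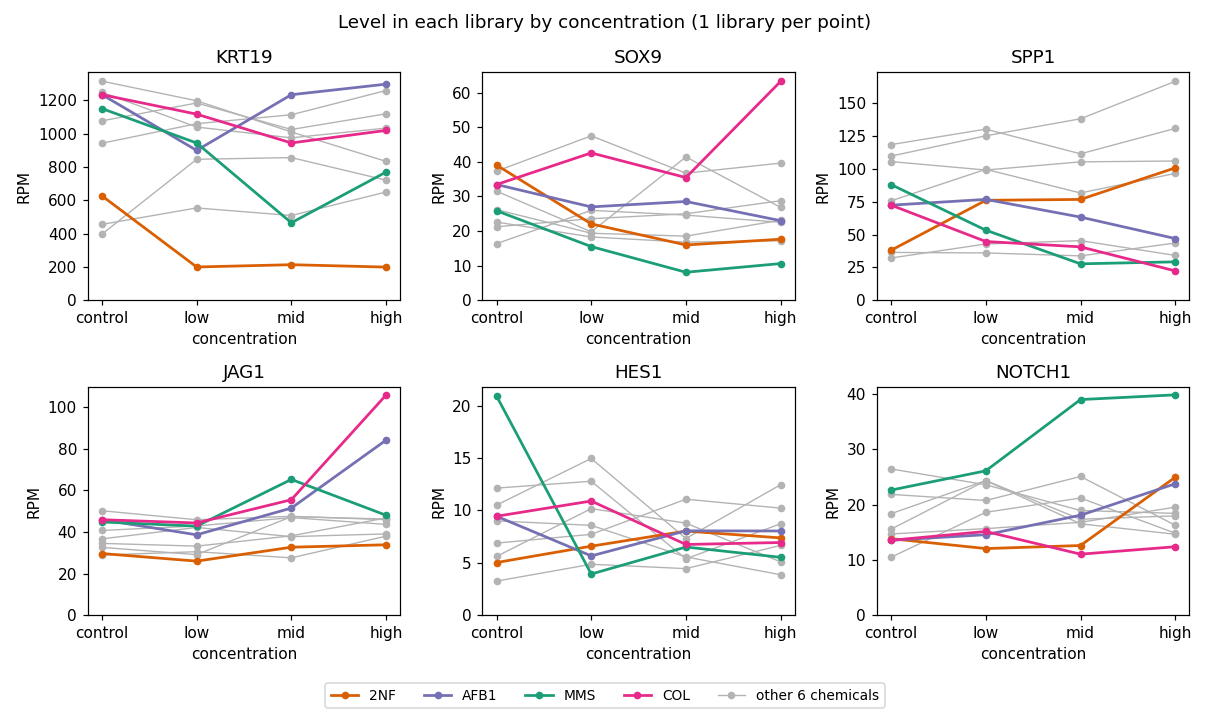
RPM of 6 genes (linear axes from 0) in the control and at low, mid and high concentration, 1 library per point, with 2NF, AFB1, MMS and COL coloured and the other 6 chemicals in grey. KRT19 after 2NF is level near 200 RPM at all concentrations, JAG1 rises at the high concentration of COL (106 RPM) and AFB1 (84.2 RPM), and HES1 in the MMS control (20.9 RPM) stands above every other point.

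After COL, the ligand JAG1 rose and SPP1 fell. JAG1 was 45.9 RPM in the shared DMSO control and 44.3, 55.5 and 106 RPM at low, mid and high, and the high library was the highest of all 39. The log2 change per step was 0.42 ± 0.08 (adjusted p = 0.000449). SPP1 was 72.3 RPM in the control and 44.7, 40.6 and 22.3 RPM after treatment, with the last value the lowest of all 39 (-0.60 ± 0.09, adjusted p = 4.74e-05). Over all targets, 5.13% rose and 7.21% fell with COL.

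The JAG1 rise rested on the high concentration: without that library it was 0.23 per step (adjusted p = 0.464). The SPP1 call in COL held with each of the 39 libraries left out in turn (-0.65 to -0.52 per step). For SPP1 the shared control was the highest DMSO control, those of CISP, 2NF and ETP being 36.4, 38.0 and 32.2 RPM. The SPP1 ratios at low and mid, -0.68 and -0.82, were within the largest difference between 2 DMSO controls, 1.14. Against the mean of all DMSO controls, the SPP1 ratio at high was -0.89 in place of -1.65. The shared control was also the highest DMSO control for JAG1, those of CISP, 2NF and ETP being 32.6, 29.6 and 28.9 RPM. Against the same mean, the JAG1 ratio at high was 1.62 in place of 1.19. With the 3 concentrations taken alike neither passed (adjusted p = 0.703 for JAG1 and 0.157 for SPP1). SOX9 was 33.4 RPM and then 42.6, 35.5 and 63.2 RPM, the highest of all libraries, and its trend did not pass (0.24 ± 0.11, adjusted p = 0.173). The KRT19 levels, 1233 RPM and then 1116, 943 and 1019 RPM, gave a slope of -0.08 ± 0.12.

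With COL, 1 of 3 tested genes of the Notch target list rose, HES4 (0.39 ± 0.10, adjusted p = 0.00856), while HES1 was 9.45 RPM and then 10.9, 6.75 and 6.94 RPM. Among bile duct markers, MMP7 (0.46, adjusted p = 0.00273) and SOX4, a transcription factor of developing ducts (0.52, adjusted p = 0.00976), rose, and ONECUT1 fell (-0.51, adjusted p = 0.00566). None of the 28 tested genes for Notch ligands, processing and nuclear factors passed. Hepatocyte markers fell in 7 of 10. Of 5 markers of other cell types, 1 rose, the collagen COL1A1 (0.39, adjusted p = 0.0162). The median of these 5 was -0.18 per step. None of these list genes was examined with COL high left out. The part of a change in cell types in the result was not tested.

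After AFB1, JAG1 alone passed. It was 45.9 RPM in the control that AFB1 shares with COL and 38.6, 51.5 and 84.2 RPM at low, mid and high (0.32 ± 0.08 per step, adjusted p = 0.0120). Without the high library the change was 0.16 per step (adjusted p = 1.00), and with the 3 concentrations taken alike it was 0.29 (adjusted p = 1.00). Because AFB1 and COL share that control, their JAG1 values are not independent. SPP1 was 72.3 RPM and then 76.7, 63.2 and 46.9 RPM (-0.22 ± 0.09, adjusted p = 0.175). Over all targets, 2.36% rose and 3.21% fell. Hepatocyte markers fell in 6 of 10 and ONECUT1 fell (-0.47, adjusted p = 0.0225). These markers were not examined with a library left out.

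In the other 6 chemicals, none of 42 pairs passed with edgeR or with DESeq2, and 3 had an unadjusted p under 0.05. Few targets passed at all: 0% with CISP, 2DG and AMP, 0.0796% with ETP, 0.0579% with ASC and 0.0434% with NaCl, in either direction. KRT19 in CISP was 397 RPM in the control and 845, 856 and 720 RPM after treatment. The 3 treated libraries were higher, but the control was the lowest of the 9, and against the mean of all DMSO controls the ratios at low and mid were 0.47 and 0.49 in place of 1.09 and 1.11. SPP1 in ASC was 110 RPM and then 125, 138 and 166 RPM (0.21 ± 0.09 per step, adjusted p = 0.312), the last value being the highest of all libraries.

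To see which of these trends set a chemical apart, each was tested against the mean trend of the other 9. For 2NF, KRT19 (-0.52 ± 0.13, adjusted p = 0.0212) and SPP1 (0.50 ± 0.10, adjusted p = 0.00637) passed, where 1.46% of all targets were higher and 1.18% lower. For MMS, SPP1 (-0.61 ± 0.10, adjusted p = 0.000267), SOX9 (-0.50 ± 0.13, adjusted p = 0.0207) and HES1 (-0.62 ± 0.19, adjusted p = 0.0479) passed, where 1.51% were higher and 5.08% lower. For COL, SPP1 (-0.59 ± 0.09, adjusted p = 9.87e-05) and JAG1 (0.32 ± 0.08, adjusted p = 0.0144) passed, where 2.65% were higher and 2.77% lower. SPP1 was the gene that passed in all 3 chemicals, higher in 2NF and lower in MMS and COL. Without the 2NF control the KRT19 difference was -0.01 (adjusted p = 1.00) and the SPP1 difference 0.29 (0.618), and without 2NF high the SPP1 difference was 0.59 (0.0682). Without 2NF mid the KRT19 difference was -0.50 (0.0502). Without the water control, the differences in MMS were 0.25 for HES1 (adjusted p = 0.826), -0.28 for SOX9 (0.686) and -0.46 for SPP1 (0.202), and without MMS mid that of SOX9 was -0.42 (0.0695). Without COL high, the differences were 0.13 for JAG1 (adjusted p = 0.959) and -0.52 for SPP1 (0.0919).

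The study's main question concerns DDI against non-DDI chemicals. At the high concentration, NOTCH1 had log2 ratios of 0.81, 0.77, 0.46, 0.39 and 0.79 for 2NF, AFB1, CISP, ETP and MMS, and of -0.03, -0.40, -0.50, -0.12 and -0.08 for 2DG, AMP, ASC, COL and NaCl. The ratios of the classes did not overlap, which held for 1 of the 7 genes and for 1.18% of the targets that never fell under 10 counts. The CISP control, at 10.5 RPM, was the lowest of all 39 libraries for NOTCH1. The CISP ratios at low, mid and high were 0.77, 0.95 and 0.46. The largest difference in NOTCH1 between 2 controls was 0.45 for DMSO and 0.73 for media. The ETP ratio and all non-DDI ratios were within these limits, and MMS has none. In RPM the classes overlapped: CISP had 14.8, against 12.4 in COL, 14.6 in NaCl, 16.3 in AMP, 17.95 in 2DG and 18.4 in ASC. The difference between the classes was 0.88 ± 0.15 and did not pass over all targets (edgeR adjusted p = 0.0647). It passed with DESeq2 (adjusted p = 0.000933), without a filter on low counts (0.0477) and in 1 fit of all 39 libraries (0.0110). It did not pass with RLE size factors (0.0733) or library totals alone (0.0526), and in the 10 treated libraries without their controls it was 0.55 (adjusted p = 0.357). SOX9 differed by -1.02 ± 0.28 (adjusted p = 0.274). It passed in the fit of all 39 libraries (0.0459), and was -0.42 in the 10 treated libraries without their controls (adjusted p = 0.680) and -0.75 without COL (0.302).

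None of the 7 genes was called between the classes with edgeR at any concentration, with 2, 1 and 1 genes at an unadjusted p under 0.05 at high, mid and low. Of all targets, edgeR called 0.0515% at high, 0% at mid and 0% at low. DESeq2 called 1, 0 and 0 of the 7 genes, among 96, 12 and 0 targets in all. The NOTCH1 difference was 0.56 ± 0.21 at mid (adjusted p = 0.807) and 0.02 ± 0.20 at low (adjusted p = 0.999). Of the 5 DDI chemicals, 4 have DMSO controls and 4 of the 5 non-DDI chemicals have media controls. Within the DMSO libraries alone, 4 DDI chemicals against COL, the NOTCH1 difference was 0.88 (adjusted p = 0.159). The SPP1 ratios of the classes overlapped widely, from -1.56 to 1.38 in DDI and from -1.65 to 0.60 in non-DDI.

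The 7 genes did not vary as 1 block over the 39 libraries. Pearson's r of log2(RPM + 1) ranged from -0.61 to 0.47 over 21 pairs, with a median of 0.08. The lowest was SOX9 with NOTCH1 (rho = -0.49, r = -0.48 without the 2 farthest libraries, and r = -0.36 after the mean of each control set was removed). The highest was KRT19 with JAG1 (rho = 0.46, r = 0.39 without the 2 farthest), which was -0.03 after removal of the set means. JAG1 and HES1 had r = -0.09. The libraries share controls, vehicles and depth, so these values are descriptions.

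Among 11555 further targets that never fell under 10 counts, those most like each gene were named by the highest r (n = 39). KRT19 was closest to the Wnt receptor FZD2 (r = 0.82), the microtubule protein MAP1B (0.82) and the collagen COL8A1 (0.81). SOX9 was closest to the growth factor BMP2 (0.82), STARD5 (0.80) and the syndecan SDC2 (0.80). SPP1 was closest to the adaptor GRB14 (0.87), the steroid enzyme HSD17B2 (0.85) and RGS14 (0.85), the last of which fell to 0.43 within control sets. HES1 was closest to ZC3H12A (0.73), EGR1 (0.70) and ZFP36L1 (0.66), all genes of early responses to stimuli. JAG1 was closest to MICAL2 (0.76), S100A2 (0.75) and ENC1 (0.74), the last of which was 0.46 without the 2 libraries farthest in JAG1.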

How the data were processed

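Reads of pooled RNA (3 cultures per library) were aligned by the authors to the transcripts of the panel (hg19; Torrent Mapping Alignment Program). The authors deposited the counts per target, not normalized, and RPM, in which counts are divided by the library total. The 10 spike-in targets had 0 counts and were left out. Groups came from the sample labels. The members and gene lists were chosen with earlier results of these data known. All 10 members are named, with up to 4 called genes per other list by adjusted p and the 3 most alike targets of 5 members.

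Counts were tested with edgeR 4.0.16 (TMM, filterByExpr, quasi-likelihood) in R 4.3.3. Trends used 39 libraries with 9 control sets as blocks and 10 slopes, class tests 19 libraries, and control tests 8. The Benjamini-Hochberg adjustment covered every target in a fit (13812 for trends). The p-values measure the scatter of single libraries around the slopes in trend tests and between controls of the same vehicle in control tests. In class tests the chemicals are the replicates of a class. Those p-values measure how the changes from the matched controls differ between chemicals of a class. The scripts were tested on simulated data. Alternatives were DESeq2 1.42.0, other normalizations, filters, concentration codings and controls, a pseudocount of 0.1, and each library left out. The 3 concentrations taken alike were added after the data were seen. Levels and figures used Python 3.11.15, pandas 2.3.3 and matplotlib 3.10.9. Genes with few counts are measured less precisely, and the spread between cultures was not measured.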

Additional observations from a re-analysis of the deposited data

Results flagged for a closer look

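The 7 trends that differed from the mean trend of the other 9 chemicals, by the test of that difference, were those of KRT19 (-0.52 per step) and SPP1 (0.50) in 2NF, of SOX9 (-0.50), SPP1 (-0.61) and HES1 (-0.62) in MMS, and of SPP1 (-0.59) and JAG1 (0.32) in COL. The 2NF pair lost its calls without the 2NF control, the 3 in MMS without the water control and the 2 in COL without COL high. Among the 4 DMSO and the 4 media controls, none of 14 groups of values of the 7 genes held a sample far from the others by Dixon's test, which chance would flag in about 1 of 20 groups. With 4 values per group this test has little power and cannot show that no control was aberrant. The control of AFB1 with COL was the highest of the DMSO controls for KRT19 (1233 RPM), SPP1 (72.3 RPM) and JAG1 (45.9 RPM).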

How the results depend on the processing

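The number of trends called in the 70 pairs, 9 in the main fit, was 10 with library totals alone and 6 with the concentration as a fraction of the highest. It was 6 with the 4 libraries of each chemical alone, 4 with the 3 concentrations alike, and 9 under the other 4 alternatives. The pairs called were not always those of the main fit. With the 4 libraries alone, the main calls that held were JAG1 in AFB1 (adjusted p = 0.0373) and JAG1 (0.00206) and SPP1 (6.83e-05) in COL. The 7 trends that differed from the other 9 chemicals were 3 with the fraction coding, 3 with the concentrations alike and 7 to 8 otherwise. Leaving out 1 library in turn gave 6 to 11 trends, 4 to 9 differences from the other chemicals and 0 to 3 calls between vehicles. HES1 in MMS turned without the water control, to 0.22 per step and 0.25 against the other 9 (ranges over all libraries left out -0.93 to 0.22 and -0.89 to 0.25), and the latter call was lost or turned in 31 of 39 such fits. The 0 calls between classes at the high concentration were 1 without a filter, 1 with DESeq2 and 2 in 1 fit of all 39 libraries, and stayed 0 with any chemical left out (0 to 0 at each concentration). The 20 ratios past 2-fold were 23 with a pseudocount of 0.1, 20 with TMM-scaled totals and 17 against the mean of the controls of the same vehicle. The median ratio of all targets moved by up to 0.12 (MMS high). The cause of these changes was not tested. The control set was a block in the trend and class fits. HES1, with 32 to 264 counts, has the fewest counts of the 7 genes.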
